A study of Mus musculus with 27 samples.

Results

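The genes described here are 10 targets of the transcription factor p53 and markers of cell senescence: Cdkn1a, Cdkn2a, Cdkn2b, Mdm2, Ccng1, Bax, Bbc3, Gdf15, Phlda3 and Trp53inp1. They were taken by gene name from the bulk RNA-seq count table of the study, which lists 21850 genes, and all 10 were found there. The libraries were made from mouse liver cells of the C57BL/6 strain and fall into 9 conditions with 3 libraries each, 27 in all. Hepatocytes were sequenced freshly isolated, or after growth as hepatocyte organoids (HepOrgs), 3D cultures derived from adult hepatocytes. HepOrgs were used at passage 2. They either stayed in HM-Wnt, the medium used for expansion, or changed to MM, a minimal medium, and RNA was taken after 7 days or 14 days, called 1 week and 2 weeks below. Assembloids combined 10 HepOrgs with 1000 cholangiocytes and with portal mesenchymal cells, 250 for the homeostatic and 2500 for the fibrotic-like form, and were kept in MM for 7 days or 18 days, called 1 week and 2.5 weeks below. All libraries carry a wild-type genotype label except replicate 3 of the freshly isolated hepatocytes, whose title says wild type and whose genotype label says MDR2-het. The labels do not say whether replicates came from separate animals or cultures, so the p-values below measure the spread between these libraries, which may be technical in part.

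p53 is stabilised after DNA damage and other stress and activates genes that stop the cell cycle, start apoptosis, repair DNA or switch p53 itself off again. Cells that stop dividing for good, called senescent, hold the arrest with inhibitors of cyclin-dependent kinases, the enzymes that drive the cell cycle. In liver, hepatocytes rarely divide until injury, and the p53 target Cdkn1a and the inhibitors encoded by Cdkn2a and Cdkn2b limit their return to the cycle.

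Values are CPM, the reads of a gene relative to all reads on genes and scaled to a fixed total, adjusted between libraries with edgeR's TMM factors over the 27 libraries. Total counts on genes ranged from 30289364 to 65348596 per library with a median of 43727965. Alb, the main hepatocyte secreted protein, was at 16930 CPM or more in the freshly isolated hepatocytes and at 4041 to 26370 CPM in HepOrgs. The summed CPM of 8 hepatocyte markers was 65660 to 103800 in fresh hepatocytes and 19350 to 57280 in HepOrgs, and 3, 5, 6 and 7 of the 8 were lower in HM-Wnt at 1 and 2 weeks and MM at 1 and 2 weeks than in fresh hepatocytes. The freshly isolated hepatocytes also held endothelial and immune RNA. The summed CPM of 6 endothelial markers was 38.9 to 179 in them and at most 2.02 in any HepOrg library, and that of 6 immune markers was 45.2 to 421 against at most 22. The 6 cholangiocyte markers went the other way, with 11.8 to 139 CPM in fresh hepatocytes, where up to 4 of the 6 had no read, and 3524 to 14990 CPM in HepOrgs. Krt19, 1 of these 6, was also higher, with 0 to 0.81 CPM in fresh hepatocytes and 1.03 to 21.8 CPM in HepOrgs. In assembloids, to which cholangiocytes had been added, the sum of the 6 was 6596 to 10490 CPM and Krt19 was at 14.2 to 1632 CPM. The paper describes HepOrgs as without ductal markers such as SOX9 and KRT19. Which cells held the marker RNA in HepOrgs was not tested. Among the 12 assembloid libraries 2 stood apart. Homeostatic 1 week replicate 2 had a summed CPM of 2428 over 8 hepatocyte markers and reads on 8465 genes, and fibrotic-like 1 week replicate 3 had a summed CPM of 2822, against 10680 to 82180 in the other assembloids.

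Of the 10 genes 5 have a stretch near their start that resembles the p53 binding motif. The motif is a pair of half-sites of 10 bases, each with a core that reads CNNG, and was searched without a spacer, with the 4 outer core bases fixed and up to 2 mismatches at the other positions, within 5000 bases on either side of the start of the canonical transcript in GRCm39. Such a pair was found for 5 of the 10 genes and in 9.83% of the windows around 21616 protein-coding genes, and with at most 1 mismatch for 4 of the 10 and in 1.68% of windows. No gene of the 10 had a pair without a mismatch, which 0.194% of windows held. The pairs are shown because p53 binding is what the targets have in common, on the strand of the gene, with the cores in capitals.
Cdkn1a, chr17:29309902-29309921, 2826 bases upstream of the canonical start, 1 mismatch: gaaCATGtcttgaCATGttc
Ccng1, chr11:40646289-40646308, 160 bases upstream, 1 mismatch: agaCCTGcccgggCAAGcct
Ccng1, chr11:40645763-40645782, 366 bases downstream in an intron, 1 mismatch: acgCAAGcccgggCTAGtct
Gdf15, chr8:71084616-71084635, 486 bases downstream in an exon, 1 mismatch: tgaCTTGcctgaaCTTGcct
Cdkn2b, chr4:89226637-89226656, 2630 bases downstream in an intron, 1 mismatch: agaCATGtccggtCTTGctc
Bax, chr7:45115998-45116017, 318 bases downstream in an exon, 2 mismatches: gggCAGGcccgggCTTGtcg
The closest stretches around the other genes had 3 mismatches for Mdm2 and Bbc3, 4 for Phlda3 and 5 for Cdkn2a and Trp53inp1. These are matches of letters only, and binding was not measured here.

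The first question was how the 10 genes differ between freshly isolated hepatocytes and HepOrgs. Most of them were higher in HepOrgs, and Cdkn1a, Cdkn2b and Phlda3 went from at most 5.01 CPM in any fresh library to at least 24.8 CPM in any HepOrg library. In HM-Wnt at 1 week, 8 of the 9 genes with enough reads for the test were higher and Bbc3 was lower than in fresh hepatocytes, while 49.7% of all 13405 genes tested were called, 24.9% higher and 24.8% lower. In HM-Wnt at 2 weeks 8 of 9 were higher and none lower (background 51.8% called, 26.1% higher and 25.7% lower). In MM at 1 week 8 were higher and 1 lower (background 42.8%, 21.5% and 21.3%), and in MM at 2 weeks 7 were higher (background 39.7%, 19.7% and 20%). The median log2 fold change of the 9 genes was 1.87, 1.72, 1.59 and 1.68 in these 4 comparisons, beside 0.02, 0.03, 0.00 and -0.01 over all genes tested. Without fresh replicate 3, whose genotype labels conflict, 9, 9, 7 and 8 of the 10 genes were higher and none lower. Bbc3 was then not called in any of the 4, and Gdf15 and Trp53inp1 were not called in MM at 1 week (adjusted p = 0.0556 and 0.099 in edgeR). These counts include Cdkn2a, which passed the filter in that fit. It had no read in any fresh library, so it passed only through HepOrg libraries and could only come out higher. Its calls are therefore no support. The share of all genes called in that fit is not given here. The 4 comparisons share the same 3 fresh libraries, so they are given side by side and not as independent evidence. On the TPM scale the median of all genes moved up by 0.47 to 0.75 (log2(TPM + 1)) in the same comparisons, and 76.5 to 84.5% of the genes called there were higher, against 49.6 to 50.4% with the TMM scale. The members called on that scale were 8 higher and none lower in each comparison. RNA of the hepatocyte, endothelial, immune and cholangiocyte marker genes given above moved with the same contrast, and its part in these differences was not tested. In bulk RNA, fewer cells of a type and less RNA per cell cannot be told apart.

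**Figure D1:**
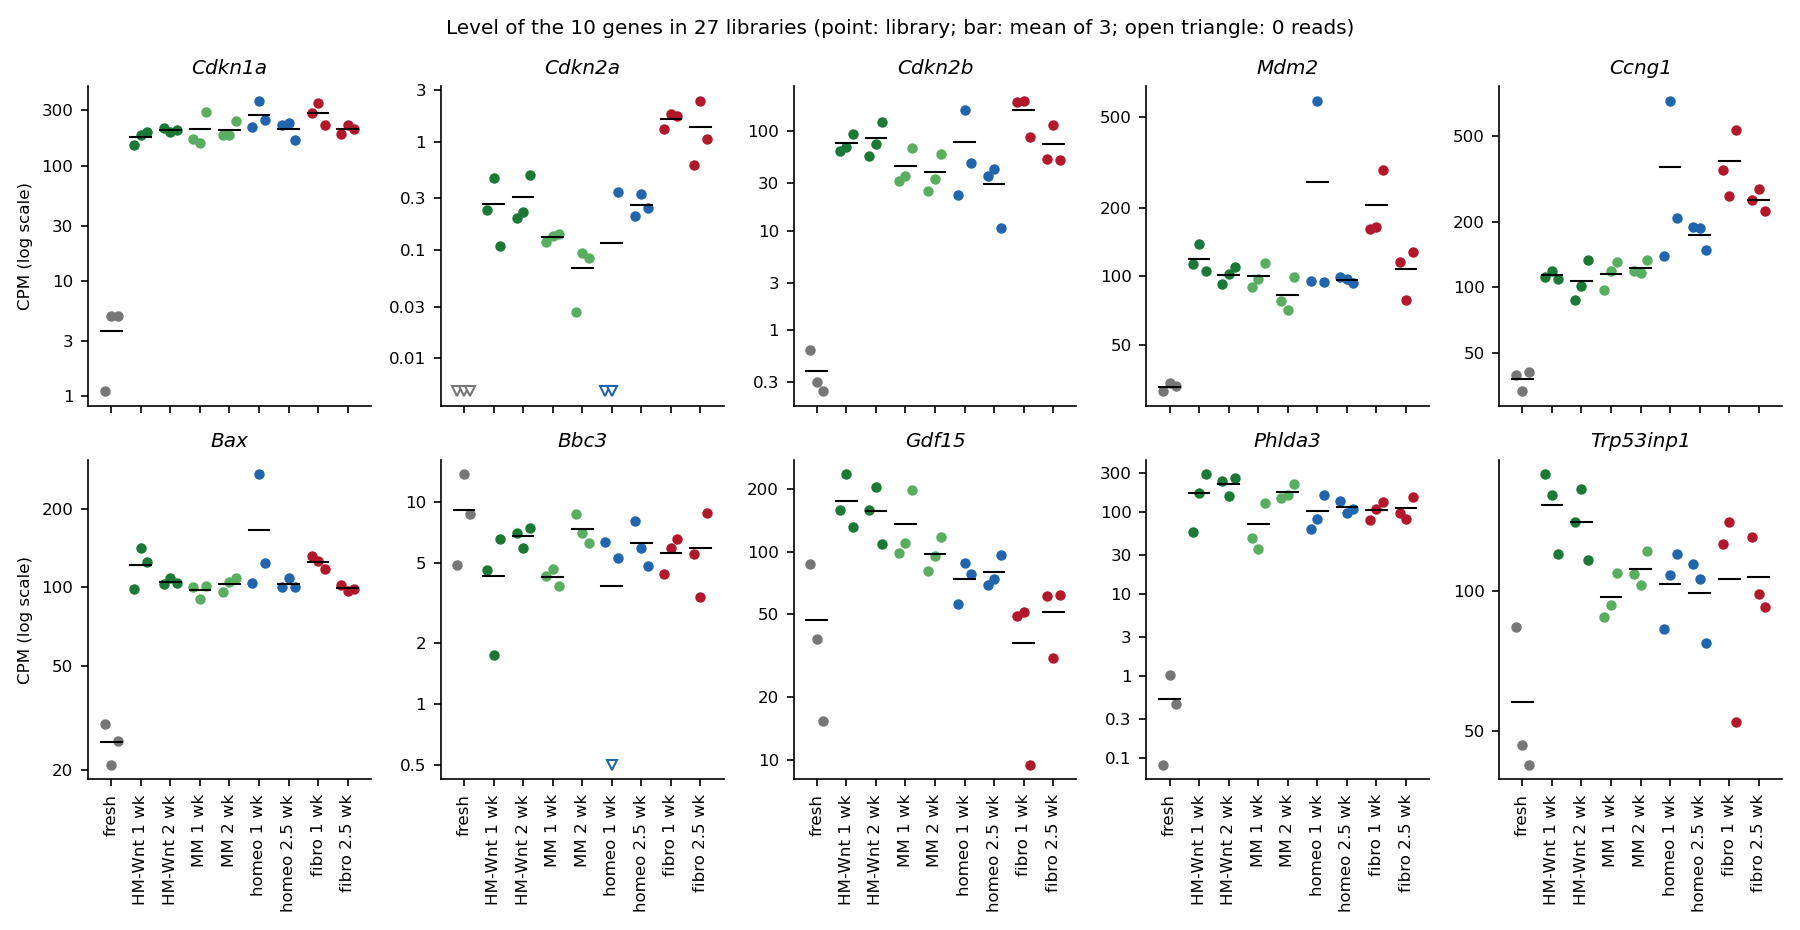
Level of each of the 10 genes in CPM on a log scale, with a point for each of the 27 libraries, a bar for the mean of the 3 libraries of a condition and an open triangle for a library without a read. Cdkn1a, Cdkn2b and Phlda3 lie far lower in the 3 fresh libraries than in any other, Cdkn2a is highest in the fibrotic-like assembloids, and homeostatic 1 week replicate 2 stands out for Mdm2 at 589 CPM and Ccng1 at 727 CPM.

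The cyclin-dependent kinase inhibitors come first. Cdkn1a, on chromosome 17 at 29309936-29319701 (+ strand), encodes p21, the main p53 target that stops the cell cycle. Its level in the 3 fresh libraries was 1.11, 4.99 and 5.01 CPM, from 41, 117 and 165 reads. In HM-Wnt it was 152, 186 and 194 CPM at 1 week and 210, 194 and 203 CPM at 2 weeks, and in MM it was 170, 156 and 290 CPM at 1 week and 185, 186 and 245 CPM at 2 weeks. Every HepOrg library lay far above the highest fresh library, with no overlap. The log2 fold change in edgeR was 5.52 (SE 0.48, adjusted p = 1.66e-06) and 5.73 (SE 0.49, adjusted p = 1.16e-06) in HM-Wnt at 1 and 2 weeks, and 5.74 (SE 0.49, adjusted p = 1.79e-06) and 5.75 (SE 0.49, adjusted p = 1.96e-06) in MM. The 95% intervals ran from 4.48 to 6.56 at the lowest and from 4.69 to 6.80 at the highest of the 4 values, so the rise was of the same order in both media and at both times.

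Cdkn2b, on chromosome 4 at 89223204-89229276 (- strand), encodes p15, an inhibitor of the kinases that act early in the cycle. The fresh libraries held 23, 7 and 8 reads of it, or 0.625, 0.298 and 0.243 CPM. In HM-Wnt it was at 63.6, 69.2 and 94.2 CPM at 1 week and at 55.8, 74.5 and 125 CPM at 2 weeks, and in MM at 31.5, 35.7 and 68.3 CPM and at 24.8, 33.1 and 59.1 CPM. All 12 HepOrg libraries were thus far above the fresh ones, and replicate 3 was the highest of its condition in each of the 4. The log2 fold change against fresh hepatocytes in edgeR was 7.36 (SE 0.54, adjusted p = 4.53e-07) and 7.55 (SE 0.54, adjusted p = 3.07e-07) in HM-Wnt, and 6.63 (SE 0.53, adjusted p = 1.05e-06) and 6.42 (SE 0.52, adjusted p = 1.38e-06) in MM.

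Cdkn2a, 10313 bases from Cdkn2b on the same strand at 89192708-89212890, encodes p16 and the p53-stabilising protein ARF, and is the classical senescence marker. None of the 3 fresh libraries held a read of it. HM-Wnt HepOrgs held 8, 11 and 5 reads at 1 week and 8, 9 and 18 at 2 weeks, and MM HepOrgs 6, 5 and 7 at 1 week and 1, 4 and 3 at 2 weeks. These few reads, at most 0.495 CPM, were too few for the test, and a count of 0 in a library allows 3 reads. For comparison, 3 reads over the fresh group are 0.0322 CPM. Against that level, the pooled level was 7.12-fold and 9.34-fold higher in HM-Wnt at 1 and 2 weeks. In MM it was 4.05-fold and 2.15-fold higher. These ratios allow for counting error in the fresh group only. The HepOrg reads, 8 in all for MM at 2 weeks, were taken as counted, so the ratios are not lower bounds.

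Phlda3 and the regulators of p53 follow. Phlda3, on chromosome 1 at 135693809-135697686 (+ strand), encodes a p53-induced inhibitor of the kinase Akt. It had 3, 24 and 15 reads in the fresh libraries, or 0.0815, 1.02 and 0.456 CPM. In HM-Wnt it reached 57.1, 172 and 288 CPM at 1 week and 241, 158 and 258 CPM at 2 weeks, and in MM 47.5, 35.1 and 130 CPM at 1 week and 150, 161 and 219 CPM at 2 weeks. All HepOrg libraries lay far above the fresh ones, and the spread between replicates was wider than for Cdkn1a or Cdkn2b, with HM-Wnt 1 week replicate 1 at 57.1 CPM and replicate 3 at 288 CPM. The log2 fold change in edgeR was 8.28 (SE 0.87, adjusted p = 7.71e-06), 8.64 (SE 0.88, adjusted p = 5.27e-06), 7.00 (SE 0.83, adjusted p = 2.73e-05) and 8.33 (SE 0.87, adjusted p = 1.08e-05) in HM-Wnt at 1 and 2 weeks and MM at 1 and 2 weeks.

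Mdm2, on chromosome 10 at 117524780-117546730 (- strand), encodes the ubiquitin ligase that marks p53 for degradation and is itself a p53 target. It was at 31.5, 34.1 and 33.2 CPM in fresh hepatocytes, at 105 to 138 CPM in HM-Wnt at 1 week, 92.6 to 110 CPM in HM-Wnt at 2 weeks, 89.8 to 114 CPM in MM at 1 week and 71.6 to 99.2 CPM in MM at 2 weeks. The log2 fold change in edgeR was 1.81 (SE 0.16, adjusted p = 2.08e-06), 1.61 (SE 0.16, adjusted p = 5.06e-06), 1.58 (SE 0.16, adjusted p = 8.51e-06) and 1.31 (SE 0.16, adjusted p = 4.2e-05), in that order. The lowest HepOrg library (71.6 CPM) was still well above the highest fresh one (34.1 CPM), and the rise was of a far smaller size than that of Cdkn1a. Ccng1, on chromosome 11 at 40639377-40646148 (- strand), encodes cyclin G1, which binds Mdm2 and takes part in p53 feedback. It rose from 39.5, 33.2 and 40.5 CPM in fresh hepatocytes to between 87 and 134 CPM over the 12 HepOrg libraries, with log2 fold changes of 1.55, 1.49, 1.59 and 1.68 (SE 0.17 each) and adjusted p of at most 1.39e-05 in edgeR. Ccng1 overlaps Nudcd2 on the opposite strand, Bax overlaps the predicted gene Gm45808, and Cdkn1a overlaps the antisense gene Dino. Since the libraries carry no strand, reads of these overlaps cannot be told apart. Trp53inp1, on chromosome 4 at 11156412-11175230 (+ strand), encodes a p53 cofactor that is also a p53 target. It was at 83.8, 46.8 and 42.4 CPM in fresh hepatocytes and at 116 to 177 CPM in HM-Wnt and 87.8 to 122 CPM in MM. Its log2 fold change was 1.37 and 1.27 in HM-Wnt (adjusted p = 0.000391 and 0.000628 in edgeR) and 0.73 and 0.93 in MM (adjusted p = 0.0234 and 0.0068), and the MM value at 1 week was past the threshold in 10 of 15 alternative settings.

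The apoptosis genes did not move as 1 group. Bax, on chromosome 7 at 45111015-45116325 (- strand), encodes the protein that opens the outer mitochondrial membrane. It rose from 30, 20.9 and 25.9 CPM in fresh hepatocytes to between 90.3 and 141 CPM in the 12 HepOrg libraries, with log2 fold changes of 2.21, 2.02, 1.90 and 1.99 (SE 0.16 each, adjusted p of at most 1.34e-06 in edgeR). Bbc3, on chromosome 7 at 16042318-16052130 (+ strand), encodes PUMA, which frees Bax and its relatives to act. It was at 4.89, 13.7 and 8.72 CPM in fresh hepatocytes, and at 4.61, 1.75 and 6.57 CPM in HM-Wnt at 1 week, 7.07, 5.94 and 7.43 CPM in HM-Wnt at 2 weeks, 4.29, 4.68 and 3.84 CPM in MM at 1 week and 8.72, 7.04 and 6.30 CPM in MM at 2 weeks. Only in MM at 1 week did all 3 libraries lie below the fresh ones. Bbc3 fell by 1.11 on the log2 scale at 1 week in both HM-Wnt (SE 0.42, adjusted p = 0.0402 in edgeR) and MM (SE 0.41, adjusted p = 0.0446), while at 2 weeks the values were -0.44 and -0.33 (adjusted p = 0.386 and 0.545). Both calls depended on the settings, and they were past the threshold in 6 and 4 of 15 alternative settings.

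Gdf15, on chromosome 8 at 71082038-71091537 (- strand), encodes a secreted stress hormone induced by p53 and by the integrated stress response. It was at 87.7, 38.1 and 15.4 CPM in the fresh libraries, the widest fresh spread of the genes with more than 1 CPM in each library. In HM-Wnt it was at 158, 235 and 131 CPM at 1 week and 158.3, 204.1 and 109.2 CPM at 2 weeks, and in MM at 98.8, 110 and 198 CPM at 1 week and 80.6, 94.9 and 118 CPM at 2 weeks. The groups overlapped with the fresh libraries in MM at 2 weeks and in no other of the 4. The log2 fold change was 1.87 (SE 0.49, adjusted p = 0.0065 in edgeR), 1.72 (SE 0.49, adjusted p = 0.00938) and 1.51 (SE 0.48, adjusted p = 0.0228) in the first 3, and 1.04 (SE 0.48, adjusted p = 0.101, interval 0.01 to 2.07) in MM at 2 weeks. The call in MM at 1 week held in 10 of 15 alternative settings.

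**Figure D2:**
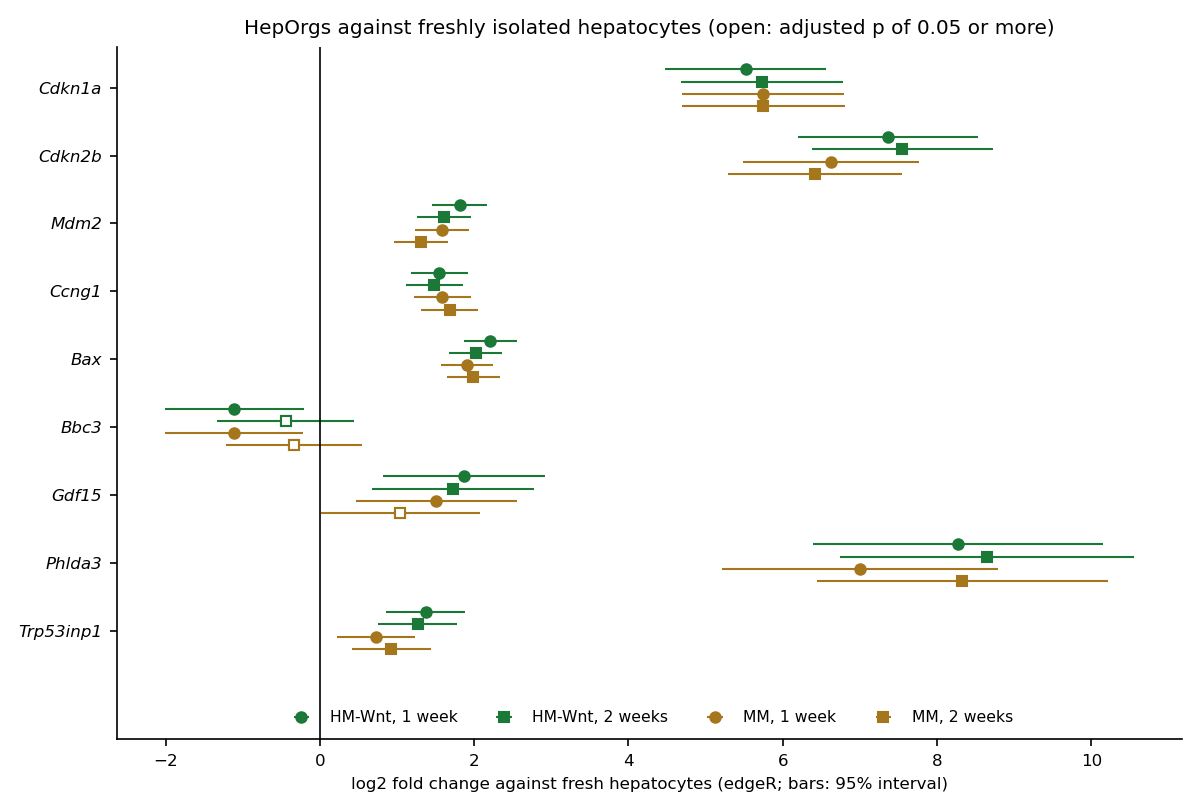
Log2 fold change of 9 of the genes in HepOrgs against the 3 fresh libraries, with 95% intervals from edgeR, for HM-Wnt and MM at 1 and 2 weeks. Filled symbols have an adjusted p under 0.05. Phlda3 and Cdkn2b lie between 6.42 and 8.64, Cdkn1a between 5.52 and 5.75, and Bbc3 on the left of 0. Cdkn2a is left out because it had no read in the fresh libraries.

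Levels per kilobase of exons are more comparable between genes, as far as the reads fall in exons. By mean level per kilobase, the order of the 10 genes was not the same in the conditions. In fresh hepatocytes Gdf15 was the highest at a mean of 20.8 CPM per kb, followed by Bax at 13.8 and Ccng1 at 8.58, with Cdkn1a at 0.613, Phlda3 at 0.201 and Cdkn2b at 0.143. In HM-Wnt at 2 weeks Phlda3 was the highest at 84.6 CPM per kb, then Gdf15 at 69.5, Bax at 56.7, Cdkn1a at 33.5 and Cdkn2b at 31.3. In fibrotic-like assembloids at 1 week Ccng1 led with 86.6 CPM per kb, then Bax with 67.6, Cdkn2b with 59.8 and Cdkn1a with 47.3, while Gdf15 stood at 16.1. Cdkn2a and Bbc3 stayed at or below 1.90 CPM per kb in all 9 conditions. These are orders of means, and the leading genes overlapped between libraries. In fresh hepatocytes Gdf15 ran from 6.82 to 38.75 CPM per kb and Bax from 11.27 to 16.15. In fibrotic-like assembloids at 1 week Ccng1 ran from 60.2 to 120.8, Bax from 63.5 to 71.35 and Cdkn2b from 32.55 to 74.97.

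The other genes of the p53 and senescence programmes were read from lists. Of 24 further p53 targets tested, 11 were higher and 2 lower in HM-Wnt at 1 week, 12 and 3 in HM-Wnt at 2 weeks, 12 and 3 in MM at 1 week and 11 and 2 in MM at 2 weeks, against the same backgrounds as above. The 3 with the greatest change in each comparison were Pmaip1, which encodes the apoptosis protein NOXA, the death receptor gene Tnfrsf10b and the receptor gene Eda2r. Their log2 fold changes were 5.93, 5.62 and 5.07 in HM-Wnt at 1 week, 5.70, 5.74 and 4.93 in HM-Wnt at 2 weeks, 4.82, 4.91 and 5.14 in MM at 1 week and 4.54, 4.42 and 4.89 in MM at 2 weeks. Of 13 regulators of p53, 1 or 2 were higher and 1 or 2 lower in each comparison, while on the TPM scale, where 7 could be tested, 3 or 4 were higher and at most 1 lower. The checkpoint kinase gene Chek2 was higher by 2.07, 1.86, 1.23 and 1.01, and Ppm1d, the gene of a phosphatase that switches p53 off, was lower (-0.79, -0.74, -1.88 and -0.80). Atm, the gene of a DNA damage kinase, was lower in the first 3 comparisons (-0.87, -0.90 and -0.67). Trp53, the gene of p53 itself, was at 25.9 to 27 CPM in fresh hepatocytes and 27 to 44.7 CPM in HepOrgs, with a log2 fold change of 0.13 (SE 0.14, adjusted p = 0.453 in edgeR) in HM-Wnt at 1 week, where it was not called. Trp53 was higher in the other 3, by 0.50 (adjusted p = 0.0102 in edgeR) in HM-Wnt at 2 weeks, 0.45 (adjusted p = 0.0221) in MM at 1 week and 0.59 (adjusted p = 0.00531) in MM at 2 weeks, with an SE of 0.14 each.

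Of 5 other cyclin-dependent kinase inhibitor genes, 3 were higher and 2 lower in HM-Wnt at 1 week, 3 and 0 at 2 weeks, 3 and 1 in MM at 1 week and 2 and 0 in MM at 2 weeks. Over all genes 24.9%, 26.1%, 21.5% and 19.7% were higher in these comparisons and 24.8%, 25.7%, 21.3% and 20% lower. The counts of the lists below stand beside the same shares. Cdkn3, whose product dephosphorylates Cdk2 and which is often expressed in dividing cells, had log2 fold changes of 3.77, 2.64, 3.08 and 1.71, and Cdkn2c had 1.32, 1.51, 1.98 and 1.92. Of 9 tested genes of the BCL2 family, 2 were higher and 3 lower, then 2 and 2, 1 and 1, and 1 and 0. Bik, which promotes apoptosis, was lower in the first 3 (-2.57, -1.92 and -0.87), while Bcl2l1, which blocks it, was higher in all 4 (1.23, 1.53, 1.00 and 0.69). Of 16 tested genes for factors that senescent cells secrete, 5, 6, 8 and 8 were higher and 1, 1, 1 and 2 lower, with medians of 1.51, 1.11, 2.19 and 2.79. The chemokine gene Cxcl5 was higher by 8.60, 7.57, 7.25 and 9.63. The growth factor gene Areg was higher by 7.91 and 8.39 in HM-Wnt and by 6.53 and 5.70 in MM. Ccl2 and Timp1 of this list, and Bak1 and Bcl2l2 of the BCL2 family, were at 0 CPM in all 9 conditions. The paper infers interactions of Timp1 in fibrotic-like assembloids from single-cell data. Why these genes had no reads here was not tested, and the 0 is not read as absence. Of 5 genes known to be lowered in senescence, Lmnb1, which encodes lamin B1, was lower in all 4 comparisons (-2.37, -2.37, -1.67 and -1.91), and 0, 1, 1 and 1 others were lower. On the TPM scale only 3 of the 5 could be tested, of which none was lower and 0, 1, 1 and 1 were higher.

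Proliferation genes were measured beside them. Of 15, 9 were higher in HM-Wnt at 1 week, 5 in HM-Wnt at 2 weeks, 3 in MM at 1 week and none in MM at 2 weeks, where 1 was lower, and the median log2 fold change went from 2.50 and 1.17 to 0.93 and -0.44. Top2a, the topoisomerase of dividing cells, was at 3.34, 2.33 and 1.51 in the first 3, and Cdk1 at 3.15, 2.45 and 1.87. These counts stand beside 24.9%, 26.1%, 21.5% and 19.7% of all genes higher in the same comparisons. Of 8 genes of the integrated stress response, which also drives Gdf15, 4, 6, 3 and 4 were higher and 0, 0, 0 and 1 lower. Trib3 rose by 3.20, 3.67, 2.98 and 3.67 on the log2 scale and Psat1, a serine synthesis enzyme, by 7.70, 7.77, 6.96 and 7.17.

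**Figure D3:**
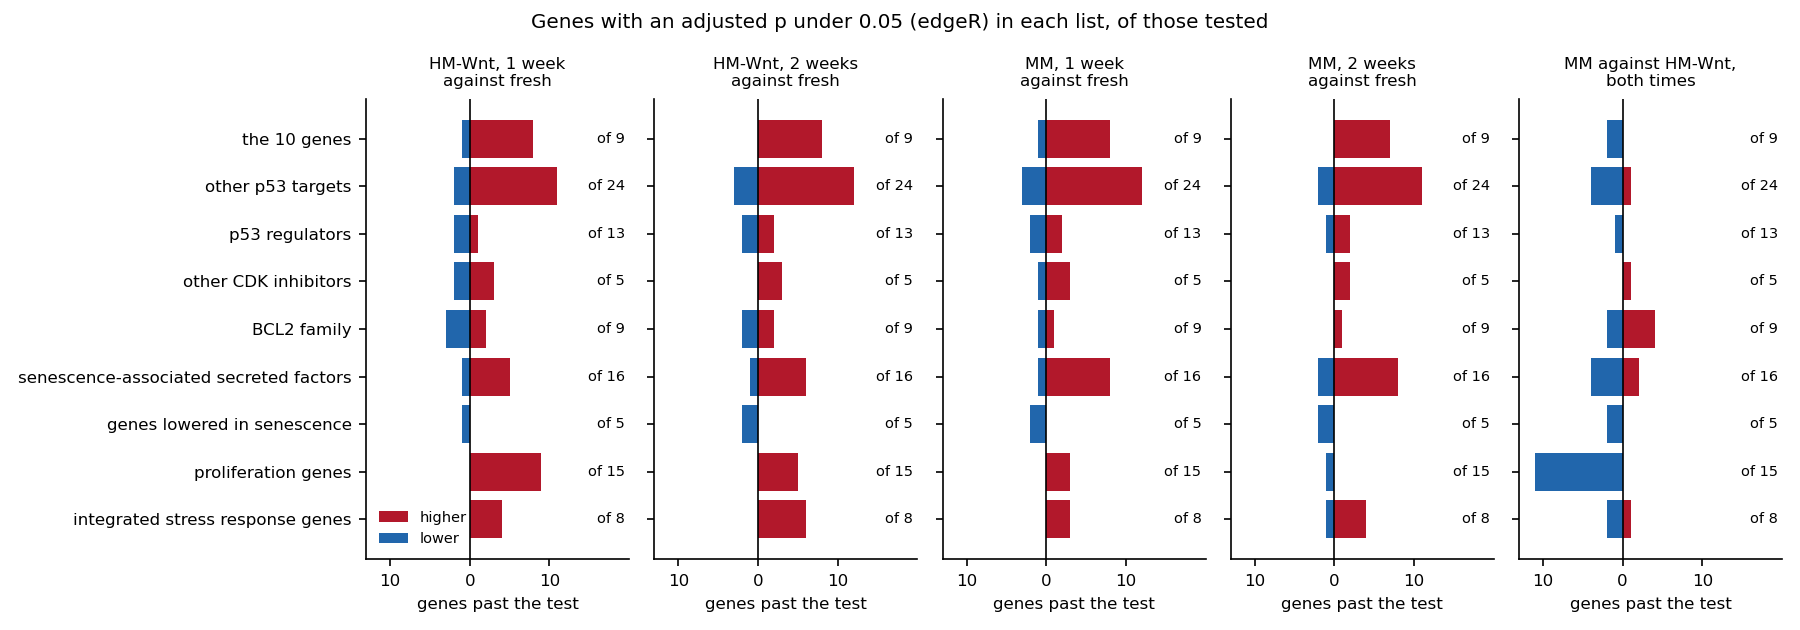
Number of genes of each list with an adjusted p under 0.05 in edgeR, higher to the right and lower to the left, in the 4 comparisons with fresh hepatocytes and in MM against HM-Wnt over both times, with the number tested beside each bar. Of the 10 genes, 7 or 8 of the 9 tested were higher against fresh hepatocytes and none against HM-Wnt, where 11 of 15 proliferation genes were lower.

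The second question was whether the medium or the time in culture changed the levels in HepOrgs. Over both times, Cdkn2b and Trp53inp1 were lower in MM than in HM-Wnt, and the other 7 genes tested were not called, while 21.5% of the 12989 genes tested were called, 10% lower and 11.5% higher. On the TPM scale 43.1% of the genes called were higher, against 53.3% with TMM, and 1 member, Trp53inp1, was called. Cdkn2b had a mean of 42.1 CPM in MM against 80.4 CPM in HM-Wnt (log2 fold change -0.93, SE 0.28, adjusted p = 0.0343 in edgeR), and Trp53inp1 104 against 146 CPM (-0.49, SE 0.13, adjusted p = 0.0187). For Trp53inp1 all 3 MM libraries lay below all 3 HM-Wnt libraries at 1 week, and at 2 weeks the ranges overlapped. For Cdkn2b the ranges overlapped at both times, and replicate 3 was the highest in each medium. Cdkn2a, which had too few reads for the test, did not overlap at 2 weeks, with 0.0267 to 0.0938 CPM in MM and 0.199 to 0.495 CPM in HM-Wnt. Libraries of the media thus did not overlap for 1 of the 10 genes at each time, beside 25.1% and 37.5% of the 12989 genes tested. At 2 weeks that gene was Cdkn2a, which is not among the genes tested. Same-numbered HepOrg libraries deviated together across genes, so the replicate number was also fitted as a block. With the block Cdkn2b was lower at 1 week (-0.82, SE 0.15, adjusted p = 0.0102 in edgeR), at 2 weeks (-1.13, SE 0.15, adjusted p = 0.000708) and over both times (-0.97, SE 0.10, adjusted p = 0.00014). Blocked calls were also more frequent over all genes, at 9.48%, 19.6% and 28.9%.

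Without the block, at either time alone no gene of the 9 was called in edgeR, beside 2.98% of all genes at 1 week (1.76% higher, 1.22% lower) and 11.5% at 2 weeks (6.84% higher). On the TPM scale 76.9% and 31% of the genes called at the 2 times were higher, against 59.2% and 59.7% with TMM, and no member was called. An unadjusted p under 0.05 was found for 3 of the 9 at 1 week and 1 at 2 weeks, and DESeq2 called 1 at each time, Trp53inp1 at 1 week and Cdkn2b at 2 weeks. Over all 12989 genes tested, an unadjusted p under 0.05 was found for 2921 and 3679, and DESeq2 called 1420 and 2494. Leaving out MM 1 week replicate 1 left no gene called over both times, and leaving out MM 1 week replicate 3, which was the highest MM 1 week library for 9 of the 10 genes, gave 4, with Gdf15 and Phlda3 added. That library also had the lowest marker sums of its group, 19350 CPM beside 49640 and 54040 CPM for hepatocytes and 3524 CPM beside 9252 and 9341 CPM for cholangiocytes, whose part in the member values was not tested. Cdkn1a differed between the media by 0.21 (SE 0.22, interval -0.27 to 0.69) at 1 week, 0.03 (SE 0.22, interval -0.45 to 0.51) at 2 weeks and 0.12 (SE 0.16, interval -0.22 to 0.46) over both. Mdm2 differed by -0.24 (SE 0.17), -0.29 (SE 0.17) and -0.26 (SE 0.12, interval -0.52 to -0.01, adjusted p = 0.131 in edgeR).

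In the same comparison 11 of 15 proliferation genes were lower in MM and none higher, with a median log2 fold change of -1.51 and Top2a at -2.38. Over all genes 10% were lower and 11.5% higher over both times, and the list counts below stand beside these shares. The median of the 9 tested members was -0.26, and that of all genes -0.02. Of the 24 other p53 targets 4 were lower, among them Pmaip1 (-1.13) and Tnfrsf10b (-1.01), and 1 was higher. Chek2 was the 1 regulator of 13 called (-0.85), and Cdkn2c was the 1 kinase inhibitor of 5 (0.54). Of the BCL2 family 4 of 9 were higher, with Bik at 1.55 and Bmf at 1.29, and 2 lower, with Bcl2 at -1.13. Secreted factors of senescence went both ways, 2 higher and 4 lower of 16, with Mmp10 at 3.35 and Igfbp3 at -2.81. Of the 5 genes lowered in senescence Hmgb2 (-0.72) and Ezh2 (-0.71) were lower, and of the 8 stress response genes 1 was higher and 2 lower, with Chac1 at 0.77 and Cebpb at -1.53.

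Between 1 and 2 weeks no member was called in either medium, nor for the difference of the media between the times, and edgeR called 0%, 0.0154% and 0% of all genes. Unadjusted p-values under 0.05 numbered 0, 2 and 0 of the 9, beside 1134, 1337 and 951 of all genes. DESeq2 called none of the 9, beside 22, 308 and 46 of all genes. The 2 with an unadjusted p under 0.05 were Bbc3 and Phlda3 in MM, where both had 3 libraries at 2 weeks above all 3 at 1 week. Phlda3 had a mean of 177 CPM at 2 weeks and 70.9 CPM at 1 week (log2 fold change 1.35, SE 0.55, adjusted p = 0.418 in edgeR). Libraries did not overlap between the times for 3 of the 10 genes in MM (Bbc3, Phlda3 and the rarely read Cdkn2a, which was lower) and for 17.9% of all genes tested. In HM-Wnt this held for Cdkn1a alone and for 14.8% of all genes tested. Cdkn2a is not among the genes tested. Cdkn1a differed between times by 0.20 (SE 0.22) in HM-Wnt and 0.02 (SE 0.22) in MM, and Mdm2 by -0.21 (SE 0.17) and -0.25 (SE 0.17), and the difference of the medium effects between times was -0.18 (SE 0.31) for Cdkn1a and -0.04 (SE 0.23) for Mdm2. Over these comparisons of HepOrgs the adjusted p in edgeR ran from 0.60 to 0.992 for Cdkn1a and from 0.131 to 0.965 for Mdm2.

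The third question was whether the genes differ between fibrotic-like and homeostatic assembloids, which differ in the number of mesenchymal cells added. From single-cell data the paper reports p53 signalling, among stress pathways, as raised in hepatocytes of the fibrotic-like form. The bulk libraries mix cell types, so hepatocytes alone were not tested here. In the fit of all 12 assembloid libraries none of the 10 genes was called at 1 week, at 2.5 weeks or over both times, and edgeR called 0% of the 14253 genes tested in each. Over all genes an unadjusted p under 0.05 was found for 2012, 944 and 2678, and DESeq2 called 867, 273 and 1766. Values differed most for Cdkn2a, which was read in 6 of 6 fibrotic-like libraries at a higher level than in any homeostatic one. The homeostatic libraries held 0, 0 and 21 reads of it at 1 week and 11, 16 and 8 at 2.5 weeks, and the fibrotic-like ones 127, 119 and 128 at 1 week and 30, 129 and 67 at 2.5 weeks. In CPM the fibrotic-like libraries lay at 0.614 to 2.40 and the homeostatic ones at 0 to 0.345. Cdkn2a differed by a log2 fold change of 3.41 (SE 1.36, interval 0.41 to 6.42, adjusted p = 0.32 in edgeR) at 1 week, 2.22 (SE 1.32, adjusted p = 0.859) at 2.5 weeks and 2.82 (SE 0.94, interval 0.73 to 4.90, adjusted p = 0.15) over both.

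Cdkn2b, the neighbour of Cdkn2a, was at 22.8, 163 and 47.8 CPM in homeostatic assembloids at 1 week and at 196, 204 and 88.6 CPM in fibrotic-like ones. At 2.5 weeks it was at 35.5, 41.6 and 10.6 CPM and at 52.8, 117 and 51.9 CPM. The forms overlapped at 1 week, where homeostatic replicate 2 was at 163 CPM, and not at 2.5 weeks. The log2 fold change was 1.13 (SE 0.72), 1.32 (SE 0.73) and 1.23 (SE 0.51, interval 0.09 to 2.36, adjusted p = 0.228 in edgeR). Gdf15 ran the other way, with 56, 87.9 and 78.4 CPM in homeostatic and 49.1, 51.1 and 9.46 CPM in fibrotic-like assembloids at 1 week, and 69.1, 73.5 and 96.7 CPM against 61, 30.9 and 61.8 CPM at 2.5 weeks. All 3 fibrotic-like libraries lay below all 3 homeostatic ones at both times, with log2 fold changes of -0.98 (SE 0.55), -0.64 (SE 0.55) and -0.81 (SE 0.39, adjusted p = 0.291 in edgeR). At 1 week the libraries of both forms did not overlap for 2 of the 10 genes (Cdkn2a and Gdf15) and for 23.8% of all genes tested, and at 2.5 weeks for 4 of the 10 (Cdkn2a, Cdkn2b, Ccng1 and Gdf15) and for 37.6% of all.

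Cdkn1a, in contrast, had much the same level in both forms. It was at 217, 366 and 248 CPM in homeostatic and 287, 346 and 224 CPM in fibrotic-like assembloids at 1 week, and at 223, 233 and 167 CPM and 188, 222 and 209 CPM at 2.5 weeks. The difference was 0.09 (SE 0.27) at 1 week, -0.02 (SE 0.27) at 2.5 weeks and 0.03 (SE 0.19) over both, with an interval of -0.38 to 0.45. Mdm2 was at 95.6, 589 and 94.4 CPM in homeostatic and 161, 164 and 294 CPM in fibrotic-like assembloids at 1 week, and at 99.1, 97.8 and 93.5 CPM and 116, 78.5 and 128 CPM at 2.5 weeks. Its difference was -0.25 (SE 0.61), 0.14 (SE 0.61) and -0.06 (SE 0.43), and without 1 library, homeostatic 1 week replicate 2, the difference at 1 week was 1.11 (SE 0.31, adjusted p = 0.0535 in edgeR).

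The 2 libraries with the lowest hepatocyte marker sums also had the highest Mdm2 and Ccng1. The next lowest, fibrotic-like 2.5 weeks replicate 2 with a sum of 10680 CPM, had the lowest Mdm2 of all assembloids (78.5 CPM) and 283 CPM of Ccng1. Homeostatic 1 week replicate 2 and fibrotic-like 1 week replicate 3 were at 727 and 531 CPM of Ccng1, against 139 to 347 CPM in the other 10 assembloids, and at 589 and 294 CPM of Mdm2, against 78.5 to 164 CPM. The former was also the highest for Bax (271 CPM), Trp53 (152 CPM) and Krt19 but for 1 library (1521 CPM), and it held no read of Cdkn2a or Bbc3, while the latter was the lowest for Gdf15 (9.46 CPM) and Trp53inp1 (52.2 CPM). The share of hepatocytes, mesenchyme and cholangiocytes in a library and the RNA of each cell cannot be told apart. The summed CPM of 8 mesenchyme markers was 154 to 1076 in homeostatic and 309 to 6496 in fibrotic-like assembloids, and fibrotic-like 1 week replicate 3 had the lowest of the fibrotic-like form. Within its group that library had Cdkn2a close to the other 2 (128 reads beside 127 and 119) and the lowest Cdkn2b (88.6 CPM beside 196 and 204 CPM). The part of mesenchyme in the values of Cdkn2a and Cdkn2b was not tested.

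**Figure D4:**
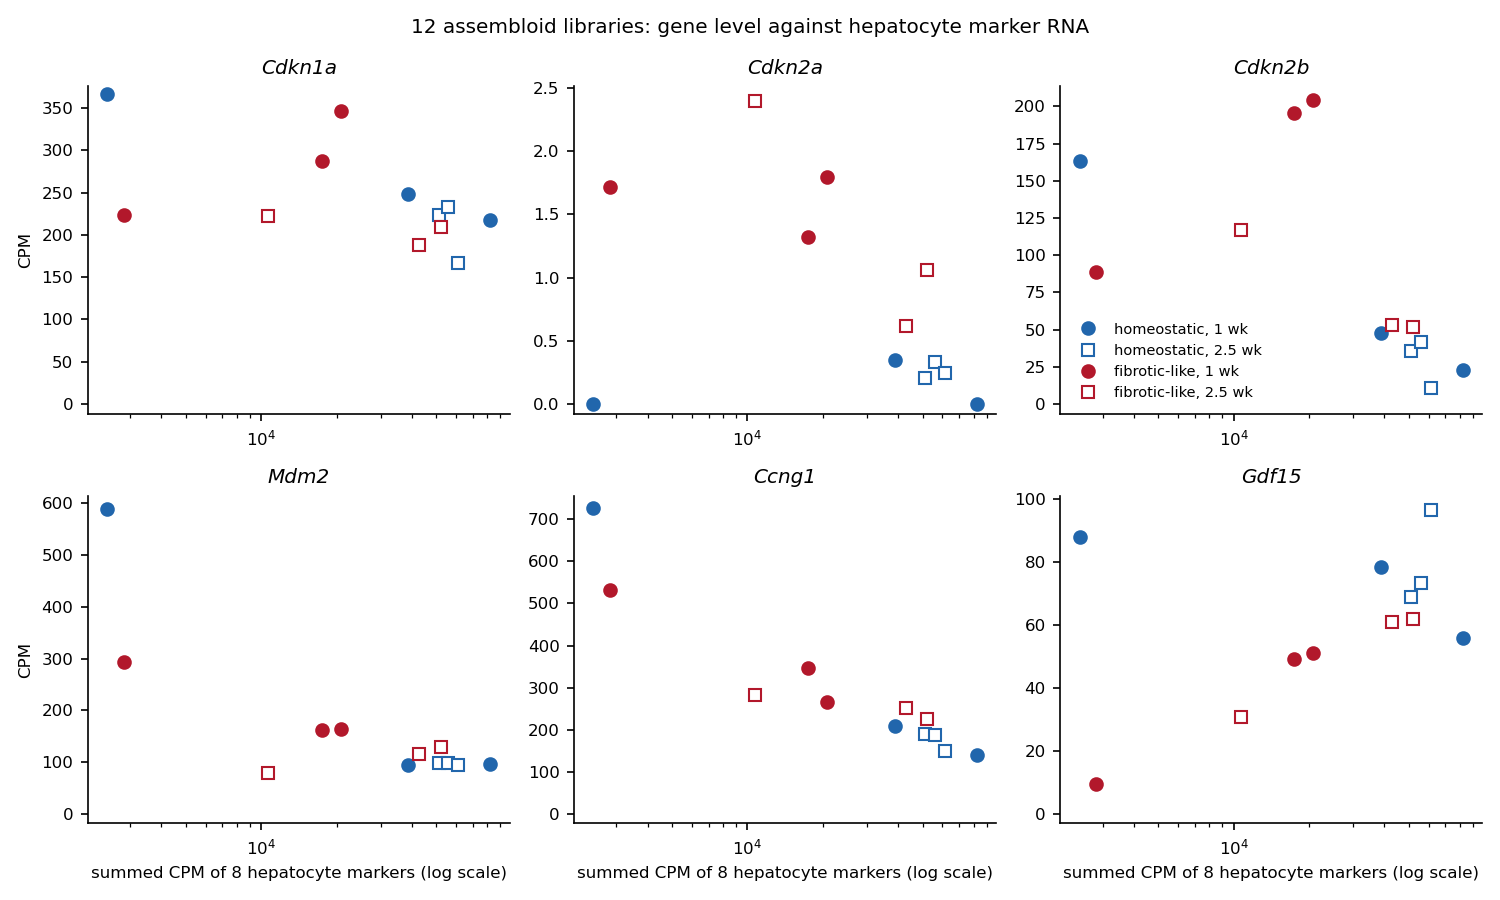
Level of 6 genes in CPM against the summed CPM of 8 hepatocyte markers (log scale) in the 12 assembloid libraries. The 2 libraries at the left, with sums of 2428 and 2822, have the highest Mdm2 and Ccng1, the fibrotic-like libraries lie above the homeostatic ones for Cdkn2a at any sum, and Cdkn1a lies between 167 and 366 CPM throughout.

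The number of genes called over both times changed with those libraries. In a fit without both, which was added after the values had been seen, 4 of the 10 genes were higher in fibrotic-like assembloids over both times, beside 28.4% of all 14530 genes called, with 15.5% of all genes higher. These were Cdkn2a (log2 fold change 2.55, SE 0.77, adjusted p = 0.0394 in edgeR), Cdkn2b (1.90, SE 0.42, adjusted p = 0.017), Ccng1 (0.66, SE 0.17, adjusted p = 0.0225) and Mdm2 (0.46, SE 0.15, adjusted p = 0.0476). Without homeostatic 1 week replicate 2 alone the count was also 4, of the same genes. At 1 week and at 2.5 weeks none was called without the 2 libraries (1.87% and 3.19% of all genes were), and Cdkn2b was nearest at 1 week with a log2 fold change of 2.49 (SE 0.67, adjusted p = 0.0715 in edgeR). Among other tools, with all 12 libraries, DESeq2 called Cdkn2a at 1 week and over both times, beside 867 and 1766 of all genes. With limma on log2(TPM + 1), Cdkn2a was called at both of these and Cdkn2b over both times, beside 735 and 1399 of all genes. On that scale the log2 fold changes of all genes moved up by a median of 0.81 and 0.67 against the TMM scale. Voom with sample quality weights called Cdkn2a, Cdkn2b, Mdm2 and Ccng1 at both, where it called 17.1% and 33.2% of all genes. At 2.5 weeks none of these tools called a member, and 0 of 10 had an unadjusted p under 0.05 in edgeR, while 1 did at 1 week and 2 over both times.

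The change from 1 to 2.5 weeks was not called for any of the 10 genes in either form, nor was the difference of that change between the forms, with 0% of all genes called and 0 of 10 at an unadjusted p under 0.05 in edgeR, and 0 in DESeq2, limma on TPM and voom. Over all genes an unadjusted p under 0.05 was found for 936, 122 and 278. Cdkn1a differed by -0.36 (SE 0.27) in homeostatic and -0.47 (SE 0.27) in fibrotic-like assembloids, and the difference of these was -0.11 (SE 0.38). Mdm2 differed by -1.33 (SE 0.62) and -0.93 (SE 0.62), with a difference of 0.40 (SE 0.87). Without the 2 libraries the Mdm2 value in the homeostatic form was 0.03 (SE 0.21).

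The last comparison set assembloids at 1 week against MM HepOrgs of the same age, which share the medium and lack the added cells. No member passed in either form, beside 0% of 14386 genes for the homeostatic and 0.751% for the fibrotic-like form. In the homeostatic form 3 of the 10 had an unadjusted p under 0.05 and DESeq2 called 1, Ccng1, beside 2249 and 895 of all genes. In the fibrotic-like form 4 had an unadjusted p under 0.05, beside 3002 of all genes. DESeq2 called 3 there (Cdkn2a, Ccng1 and Gdf15), limma on log2(TPM + 1) 5 and voom 9. Over all genes DESeq2 called 2081, limma 2153 and voom 58.9%. On the TPM scale 93.9% of the genes called in the fibrotic-like form were higher, against 48.1% with TMM. Ccng1 was at 97.4, 119 and 130 CPM in MM HepOrgs, at 139, 727 and 209 CPM in homeostatic and at 347, 265 and 531 CPM in fibrotic-like assembloids, and every assembloid library lay above every HepOrg library. Its log2 fold change was 1.61 (SE 0.46, adjusted p = 0.148 in edgeR) in the homeostatic and 1.71 (SE 0.46, adjusted p = 0.0674) in the fibrotic-like form. Gdf15 was lower than in MM HepOrgs (98.8, 110 and 198 CPM) in all 6 assembloid libraries of 1 week, with log2 fold changes of -0.89 (SE 0.49, adjusted p = 0.424 in edgeR) and -1.89 (SE 0.51, adjusted p = 0.0658).

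Cdkn2a in the fibrotic-like form was at 1.32, 1.80 and 1.71 CPM against 0.118, 0.135 and 0.140 CPM in MM HepOrgs (3.28, SE 1.11, adjusted p = 0.117 in edgeR). Cdkn2b differed by 1.85 (SE 0.69, adjusted p = 0.147 in edgeR), and Cdkn1a by 0.41 (SE 0.28) in the homeostatic and 0.47 (SE 0.28) in the fibrotic-like form. Mdm2 differed by 1.35 (SE 0.54) and 1.02 (SE 0.54). Over the 8 comparisons with assembloids the adjusted p in edgeR ran from 0.376 to 1 for Cdkn1a and from 0.241 to 1 for Mdm2. Libraries of the fibrotic-like form did not overlap with those of MM HepOrgs for 6 of the 10 genes, 5 higher and Gdf15 lower, and for 49.1% of all genes. In the homeostatic form this held for 3 of the 10, Ccng1 and Bax higher and Gdf15 lower, and for 18% of all. Without the 2 libraries poor in hepatocyte markers 6 genes were called in the fibrotic-like form, beside 24.6% of all genes: Cdkn2a (3.23), Cdkn2b (2.14), Ccng1 (1.40), Mdm2 (0.69) and Bax (0.40) were higher and Gdf15 (-1.45) was lower, with adjusted p from 0.00183 to 0.0336 in edgeR. In the homeostatic form none was called then, and Mdm2 was at -0.08 (SE 0.20). None of the genes in the other p53, kinase inhibitor, BCL2, secreted factor, senescence, proliferation or stress response lists was called in any assembloid comparison by edgeR with all libraries, proliferation genes included, although their median log2 fold change between the forms was 3.82 at 1 week and 2.04 at 2.5 weeks.

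Over the 9 conditions, the ranking of Cdkn1a by mean CPM was fibrotic-like 1 week (286 ± 61.2, SD, n = 3), homeostatic 1 week (277 ± 78.7), homeostatic 2.5 weeks (208), fibrotic-like 2.5 weeks (206), both MM conditions (205 each), HM-Wnt 2 weeks (202), HM-Wnt 1 week (177) and fresh hepatocytes (3.70 ± 2.24). The libraries of neighbours in this order overlapped except for HM-Wnt at 2 weeks over HM-Wnt at 1 week and HM-Wnt at 1 week over fresh hepatocytes. The genes whose mean log2 CPM followed that of Cdkn1a most closely over the 9 conditions, among 7493 genes searched, were Elovl7 (Pearson's r = 0.999), Anxa2 (0.996) and Acot9 (0.995). For Cdkn2b they were Pmaip1 (0.995), Tdg (0.989) and Capza1 (0.988), for Mdm2 Polr2d (0.989), Rab11a (0.984) and Rock2 (0.98), and for Gdf15 Sqle (0.976), Krtcap2 (0.968) and Micos10 (0.968). The low fresh level is 1 point that sets much of the values for Cdkn1a and Cdkn2b, and it is also the lowest point for Mdm2. Cdkn1a with Cdkn2b had r = 0.963 over the 9 conditions and 0.425 without fresh hepatocytes. Over the 8 conditions without fresh hepatocytes, Cdkn1a went with Ccng1 (r = 0.845) and Mdm2 (0.828) and against Gdf15 (-0.761), and Ccng1 went against Gdf15 (-0.932). These are descriptions over 8 or 9 means that share libraries and media.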

How the data were processed

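RNA was sequenced in paired ends after SMARTseq2 amplification, which keeps no strand. The authors deposited 1 table with whole-number read counts per gene and library, a TPM column and a gene length, and the submitters' processing notes name STAR and GRCm39. Per the deposited lengths, which lie within 5% of the whole gene span for 80.8% of genes, the TPM values were divided by lengths that include introns. For Cdkn2a the deposited length is 20183 bases, beside 1172 bases of exons. Counts taken over the same spans would hold reads in introns, and so would the CPM values, the few Cdkn2a reads included. The share of such reads was not tested. Of 37 libraries in the table, 27 were used and 10 were not analysed here. Groups came from the titles and labels.

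Counts were tested with edgeR 4.0.16 (quasi-likelihood test, TMM, filterByExpr with a minimum count of 10 and total of 15, prior count 2, Benjamini-Hochberg adjustment over all genes, threshold 0.05) in R 4.3.3. The 4 fits held HepOrgs with fresh hepatocytes, HepOrgs alone, assembloids alone, and MM HepOrgs with assembloids. Intervals are 95%. Alternatives used RLE factors, DESeq2 1.42.0, limma 3.58.1 on log2(TPM + 1) and log2(TPM + 0.1), other filters, the replicate block, only the groups compared, all 27 libraries and each library left out. A fit without the 2 hepatocyte-poor assembloids and voom with sample weights were added after seeing the data. Scripts were tested on simulated data.

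In the HepOrg fit, same-numbered libraries deviated together in 18 of 18 pairs (r 0.127 to 0.503). What a replicate number refers to is not given in the labels.

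The members and lists were chosen with earlier results of these data known. The rule for named genes took all members, Cdkn1a and Mdm2 in every comparison, up to 3 genes of each other list with the greatest change among those called, and the 3 genes most like Cdkn1a, Mdm2, Gdf15 and Cdkn2b. Text beside a list names fewer of them, and gives Trp53, Bcl2l1 and Areg in each comparison with fresh hepatocytes, a choice made after their values were seen. Sites were searched in GRCm39 with the annotation given, first within 2500 bases (3 of 10 genes, 4.86% of windows), then within 5000 bases after that look.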

Additional observations from a re-analysis of the deposited data

How the results depend on the processing

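The number of members called against fresh hepatocytes ran from 5 to 10 over the alternatives tried and stayed within 1.5 times the count reported. A count of 10 includes Cdkn2a, which had no read in the fresh libraries. The Bbc3 calls at 1 week had an adjusted p of 0.0563 (HM-Wnt) and 0.0604 (MM) in edgeR with the replicate block, in a fit where 19 of 30 same-numbered pairs were above 0.1. For MM against HM-Wnt, the number of members called was 1 at 1 week and 1 at 2 weeks with DESeq2, and 1 and 1 with the replicate block, and over both times it was 1 and 1 with TPM + 1 and TPM + 0.1 and 0 with all 27 libraries fitted together. For fibrotic-like against homeostatic assembloids it was 1 at 1 week with DESeq2 and both TPM scales and 4 with voom, and over both times 1 with DESeq2, 2 and 1 with TPM + 1 and TPM + 0.1, 4 without the 2 libraries, 4 with voom and 1 with all 27 libraries. For homeostatic assembloids against MM it was 1 with DESeq2. For fibrotic-like assembloids against MM it was 3 with DESeq2, 2 with at least 10 counts in every library, 5 and 2 on the TPM scales, 4 with only the 2 groups, 6 without the 2 libraries, 9 with voom and 2 with all 27 libraries. Leaving out 1 library gave 0 to 1 for the media at 2 weeks, 0 to 4 over both times, 0 to 4 for the forms over both times and 0 to 2 for homeostatic assembloids against MM. The causes were not tested beyond the libraries named.

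Some uncalled log2 differences changed sign. Cdkn1a between the media was -0.30 and -0.30 on the TPM scales and -0.026 with all 27 libraries at 2 weeks, and -0.016 and -0.017 on the TPM scales over both times. Between times Mdm2 in HM-Wnt was 0.087 and 0.089 on the TPM scales, and Cdkn1a in MM was -0.063 and -0.063, and -0.030 with all 27 libraries. Mdm2 between the forms at 1 week was 0.034 (at least 10 counts), 0.95 and 0.97 (TPM), 0.77 (without the 2 libraries) and 0.78 (voom). Over both times it was 0.11, 0.81, 0.83, 0.46 and 0.50 in that order, and 0.060 with the replicate block. Cdkn1a at 2.5 weeks was 0.035 (at least 10 counts), 0.57 and 0.58 (TPM), 0.022 (only the 2 groups) and 0.017 (all 27). Mdm2 between times in the homeostatic form was 0.034 without the 2 libraries and 0.040 with voom. Its difference between forms and times was -0.28 and -0.28 (TPM), -0.63 without the 2 libraries and -0.56 with voom, and its difference between homeostatic assembloids and MM was -0.080 and -0.00052 in the last 2 of these.

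Leaving out 1 library moved Cdkn1a from -0.11 to 0.38 (media, 1 week), -0.11 to 0.082 (2 weeks), -0.038 to 0.20 (both), -0.15 to 0.34 (MM between times), -0.37 to 0.14 (medium by time), -0.080 to 0.29 (forms, 1 week), -0.16 to 0.063 (2.5 weeks), -0.050 to 0.13 (both) and -0.31 to 0.059 (form by time). It moved Mdm2 from -0.19 to 0.052 (medium by time), -0.60 to 1.11 (forms, 1 week), -0.012 to 0.33 (2.5 weeks), -0.24 to 0.63 (both), -1.67 to 0.034 (homeostatic between times), -0.97 to 0.74 (form by time) and -0.10 to 1.75 (homeostatic against MM).

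In the assembloid fits same-numbered libraries share only a number (6 of 18 and 11 of 45 pairs above 0.1), and the block changed no call of a member there. In the HepOrg fit it changed those given in the report and no other. With 3 libraries a group, Cdkn2a with 0 to 21 reads in the homeostatic libraries has the least precise values.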
